A study of Mus musculus with 22 samples.

Results

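The mouse Cd209 lectin family was followed across 22 bulk RNA-seq libraries from the renal capsule, the thin fibrous sheath of the kidney, and from macrophages. The members were chosen by gene symbol, Cd209a to Cd209g, which gave 7 genes of the 52636 in the files. Aged RCAM libraries (n = 4), young RCAM libraries (n = 4), macrophages of the capsule (n = 4), macrophages of the kidney (n = 4), aged capsule tissue (n = 3) and young capsule tissue (n = 3) formed 6 groups. The labels do not expand RCAM and list whole tissue as its cell type, whereas the series text describes sorting of macrophages from dissected capsules. All groups were untreated per the labels, which give no genotype, strain, sex, age in weeks or batch, and no age class for the capsule and kidney macrophages. The labels do not say that replicates were separate mice, so p-values measure the spread between these libraries, which may be technical.

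Cd209 proteins are C-type lectins, membrane receptors that bind sugars through a calcium-dependent domain. Human DC-SIGN, the founding member, recognises mannose-rich and fucose-bearing glycans on pathogens and on host proteins and takes its ligands up into the cell. In the mouse the family has expanded into several neighbouring genes. Cd209a, also called DC-SIGN or SIGNR5, is known from dendritic cells, the main antigen-presenting cells. Cd209b, or SIGNR1, is known from macrophages of the splenic marginal zone and of lymph node medulla, where it binds bacterial polysaccharide, dextran and the complement protein C1q. Cd209c (SIGNR2), Cd209d (SIGNR3), Cd209e (SIGNR4), Cd209f (SIGNR8) and Cd209g (SIGNR7) are less studied lectins of the same group.

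The 7 genes lie together on mouse chromosome 8, between 3743397 and 4137707 in GRCm38, a span of 394 kb. Their order was Cd209a, Cd209e, Cd209d, Cd209b, Cd209c and Cd209f on the minus strand, followed by Cd209g on the plus strand. No annotated gene overlapped any of them, so counting without strand would not mix them with an antisense gene. Reads were 50 bases long, and the windows of that length in the longest coding transcripts were compared with all annotated transcripts. Cd209f and Cd209g shared 38.2% of the windows of Cd209f and 38.7% of those of Cd209g. Their transcripts had 91.5% identity with an identical run of 416 bases, so how the authors' counting split reads between Cd209f and Cd209g is uncertain. No other pair of members shared a window, and their identities were 61.9 to 76.8%. In Cd209c, 22.4% of the windows also occurred in transcripts of other genes, which makes its low counts uncertain too.

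The pair also has near-identical promoters, taken here as the 300 bases from 250 before to 50 after the RefSeq start in GRCm38.p6. Cd209f (chr8:4105715-4106014, minus strand) and Cd209g (chr8:4134486-4134785, plus strand) are shown because their transcripts followed each other most closely among members, in counts that may include shared reads. The capitals mark the run of 180 bases that is identical in both. Cd209a (chr8:3748935-3749234, minus strand), which held most of the family's transcripts in kidney macrophages, and Cd209e (chr8:3854237-3854536, minus strand), the member that differed with age in RCAM libraries, are shown for contrast, with the capitals marking matches to the short motifs named next.
Cd209f promoter: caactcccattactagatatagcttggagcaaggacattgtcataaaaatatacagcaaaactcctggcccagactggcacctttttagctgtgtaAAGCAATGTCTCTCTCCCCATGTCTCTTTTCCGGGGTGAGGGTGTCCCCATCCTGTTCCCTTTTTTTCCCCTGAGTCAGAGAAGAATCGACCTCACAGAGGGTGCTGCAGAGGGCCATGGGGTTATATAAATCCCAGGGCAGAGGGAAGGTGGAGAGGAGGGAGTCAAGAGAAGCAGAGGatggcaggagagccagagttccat
Cd209g promoter: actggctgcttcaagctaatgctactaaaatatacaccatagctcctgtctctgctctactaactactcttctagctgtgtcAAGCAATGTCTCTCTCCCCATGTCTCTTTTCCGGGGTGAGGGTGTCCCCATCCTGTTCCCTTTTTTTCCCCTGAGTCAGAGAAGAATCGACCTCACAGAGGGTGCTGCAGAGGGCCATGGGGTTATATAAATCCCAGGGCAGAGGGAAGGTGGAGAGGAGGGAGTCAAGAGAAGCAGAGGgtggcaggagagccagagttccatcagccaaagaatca
Cd209a promoter: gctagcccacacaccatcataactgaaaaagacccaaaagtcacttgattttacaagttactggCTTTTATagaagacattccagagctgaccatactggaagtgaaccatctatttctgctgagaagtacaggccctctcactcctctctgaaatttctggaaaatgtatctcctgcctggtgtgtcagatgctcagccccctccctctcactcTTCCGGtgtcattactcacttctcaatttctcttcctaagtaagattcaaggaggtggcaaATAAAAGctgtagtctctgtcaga
Cd209e promoter: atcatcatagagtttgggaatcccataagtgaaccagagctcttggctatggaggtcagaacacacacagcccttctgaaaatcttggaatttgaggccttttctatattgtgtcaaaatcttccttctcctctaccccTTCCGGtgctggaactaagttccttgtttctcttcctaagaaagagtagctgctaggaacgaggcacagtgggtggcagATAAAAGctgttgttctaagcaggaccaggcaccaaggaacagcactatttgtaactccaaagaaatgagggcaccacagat
Aligned over 281 bases, the promoters of Cd209f and Cd209g had 91.8% identity, against 50.3 to 67.2% for the other 20 pairs of members. On either strand, the AP-1 motif TGAGTCA occurred in the promoters of Cd209f and Cd209g and in 5.2% of 32851 mouse promoters. The core promoter motif TATATAA, whose matches on both strands overlap each other, occurred in the same 2 members and in 3.24% of promoters. A similar run of letters, ATAAAAG, occurred in Cd209a, Cd209b, Cd209c and Cd209e and in 5.42% of promoters. In windows with 250 bases before the start, it began at base 219 in Cd209e, 249 in Cd209b and 277 in Cd209a. On the opposite strand it lay at base 65 in Cd209a and 33 in Cd209c. Whether any of these matches acts as a core promoter motif was not tested. CCGGAA, the core bound by ETS factors, occurred in all members but Cd209c and Cd209d and in 14.9% of promoters. GAGGAA, a core bound by the ETS factor PU.1, occurred in Cd209d only and in 28.28% of promoters. These matches are descriptions of the letters in the window and were set against no binding data. For Cd209c the window, chr8:3946814-3947113, lay inside the gene's annotated span of 3940222 to 3954746 on the minus strand. Its motifs and identities may therefore not be those of a promoter.

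In units of 1000000 counts, the gene counts of a library summed to 45.0 to 51.8 in aged RCAM and 49.8 to 54.4 in young RCAM. The sums were 39.3 to 53.4 for macrophages of the capsule, 31.8 to 49.9 for those of the kidney, 27.1 to 43.2 in aged capsule tissue and 20.6 to 22.2 in young capsule tissue. Levels are given as CPM, counts per 1000000 of all gene counts of a library. The summed level of 15 pan-macrophage genes such as Csf1r and C1qa was 40062 to 44185 CPM in aged RCAM and 39281 to 41872 CPM in young RCAM. In the sorted cells it was 37717 to 41457 CPM for the capsule and 31518 to 35068 CPM for the kidney. In tissue it was 4586 to 11768 CPM in aged and 2223 to 4496 CPM in young capsule tissue, so the RCAM libraries carried macrophage transcripts at the level of the sorted macrophages and not of the tissue. The labels describe a regular-input and a low-input library kit without saying which sample had which, and kit and kind of sample cannot be told apart. Some genes had no counts in 1 kind of library. Lipe averaged 1432 CPM in aged and 1327 CPM in young capsule tissue, but 0 in the RCAM and sorted macrophage groups. Itgam was 0 in both tissue groups and averaged 0.82 CPM in aged RCAM. Whether counting differed between tissue and the other libraries, which would bear on comparisons across them, was not tested.

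Cd209f was the most abundant member per length in every group except kidney macrophages. In CPM per kilobase of transcript, it averaged 1371 in aged RCAM, 1394 in young RCAM, 1280 in capsule macrophages, 1.72 in kidney macrophages, 178 in aged capsule tissue and 109 in young capsule tissue. In aged RCAM libraries the order per length was Cd209f, then Cd209d at 382, Cd209b at 304, Cd209g at 231, Cd209a at 207, Cd209e at 12.4 and Cd209c at 1.02 CPM per kilobase. The members thus differed widely in level within 1 kind of sample. Lengths were those of the longest coding transcripts, 1186 bases for Cd209f and 1169 bases for Cd209g. The annotated exons of Cd209g cover 3610 bases, its whole span, so its counts may include intron reads, which was not tested. Of all family transcripts per length, Cd209f made up 54.7% ± 1.83 in aged RCAM, 56.2% ± 1.39 in young RCAM and 51.6% ± 3.14 in capsule macrophages (SD, n = 4 each). It made up 48.0% ± 3.59 in aged and 50.6% ± 2.11 in young capsule tissue (SD, n = 3 each). Kidney macrophages had a different make-up, in which Cd209a alone held 96.9% ± 0.54 (SD, n = 4) and Cd209f 0.593% ± 0.213.

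**Figure D1:**
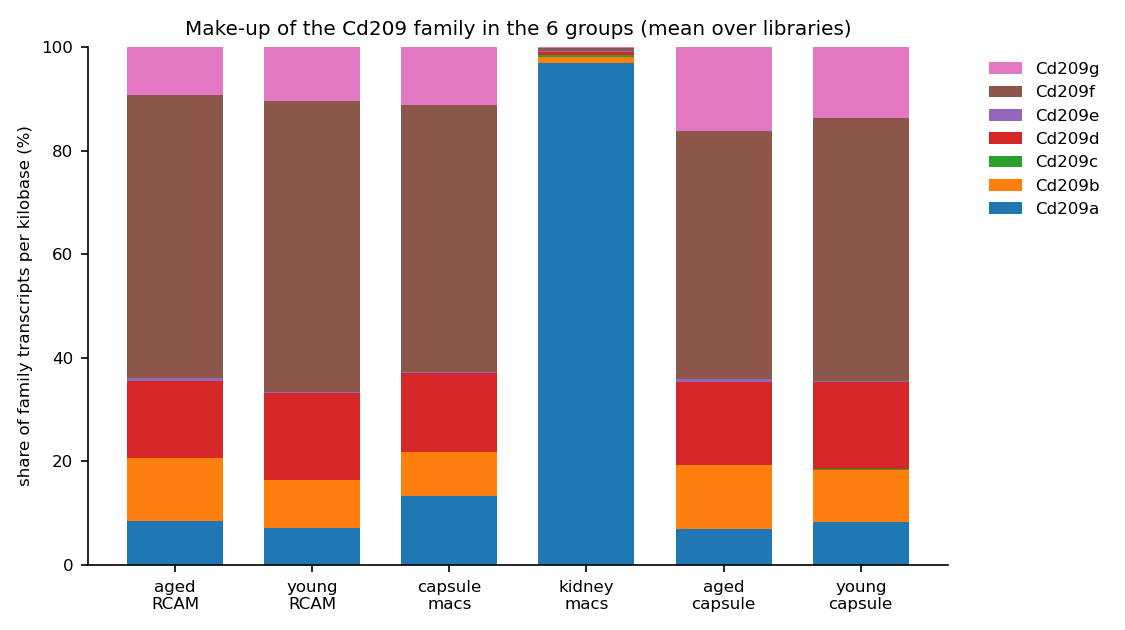
Stacked bars give the mean share (%) of each Cd209 member in the family's transcripts per kilobase, with the 6 groups along the horizontal axis. Cd209f is the widest band in 5 groups at 48.0 to 56.2%, and Cd209a fills 96.9% of the kidney macrophage bar.

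Placing the 6 groups in order for each member gave 3 patterns. For Cd209b, Cd209d, Cd209e, Cd209f and Cd209g, the RCAM libraries and capsule macrophages were highest, capsule tissue followed, and kidney macrophages were lowest. Cd209f averaged 1626 CPM in aged RCAM, 1653 in young RCAM, the highest mean, 1518 in capsule macrophages, 211 in aged capsule tissue, 129 in young capsule tissue and 2.04 in kidney macrophages. For Cd209a, capsule macrophages led with 487 CPM, followed by kidney macrophages with 426, aged RCAM with 306, young RCAM with 260, aged capsule tissue with 37.5 and young capsule tissue with 26.1 CPM. Cd209c was between 1.36 and 1.68 CPM in the 4 groups of macrophage-rich libraries, 0.518 CPM in aged capsule tissue and 0.216 CPM in young capsule tissue. The plot of levels by library shows all values.

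**Figure D2:**
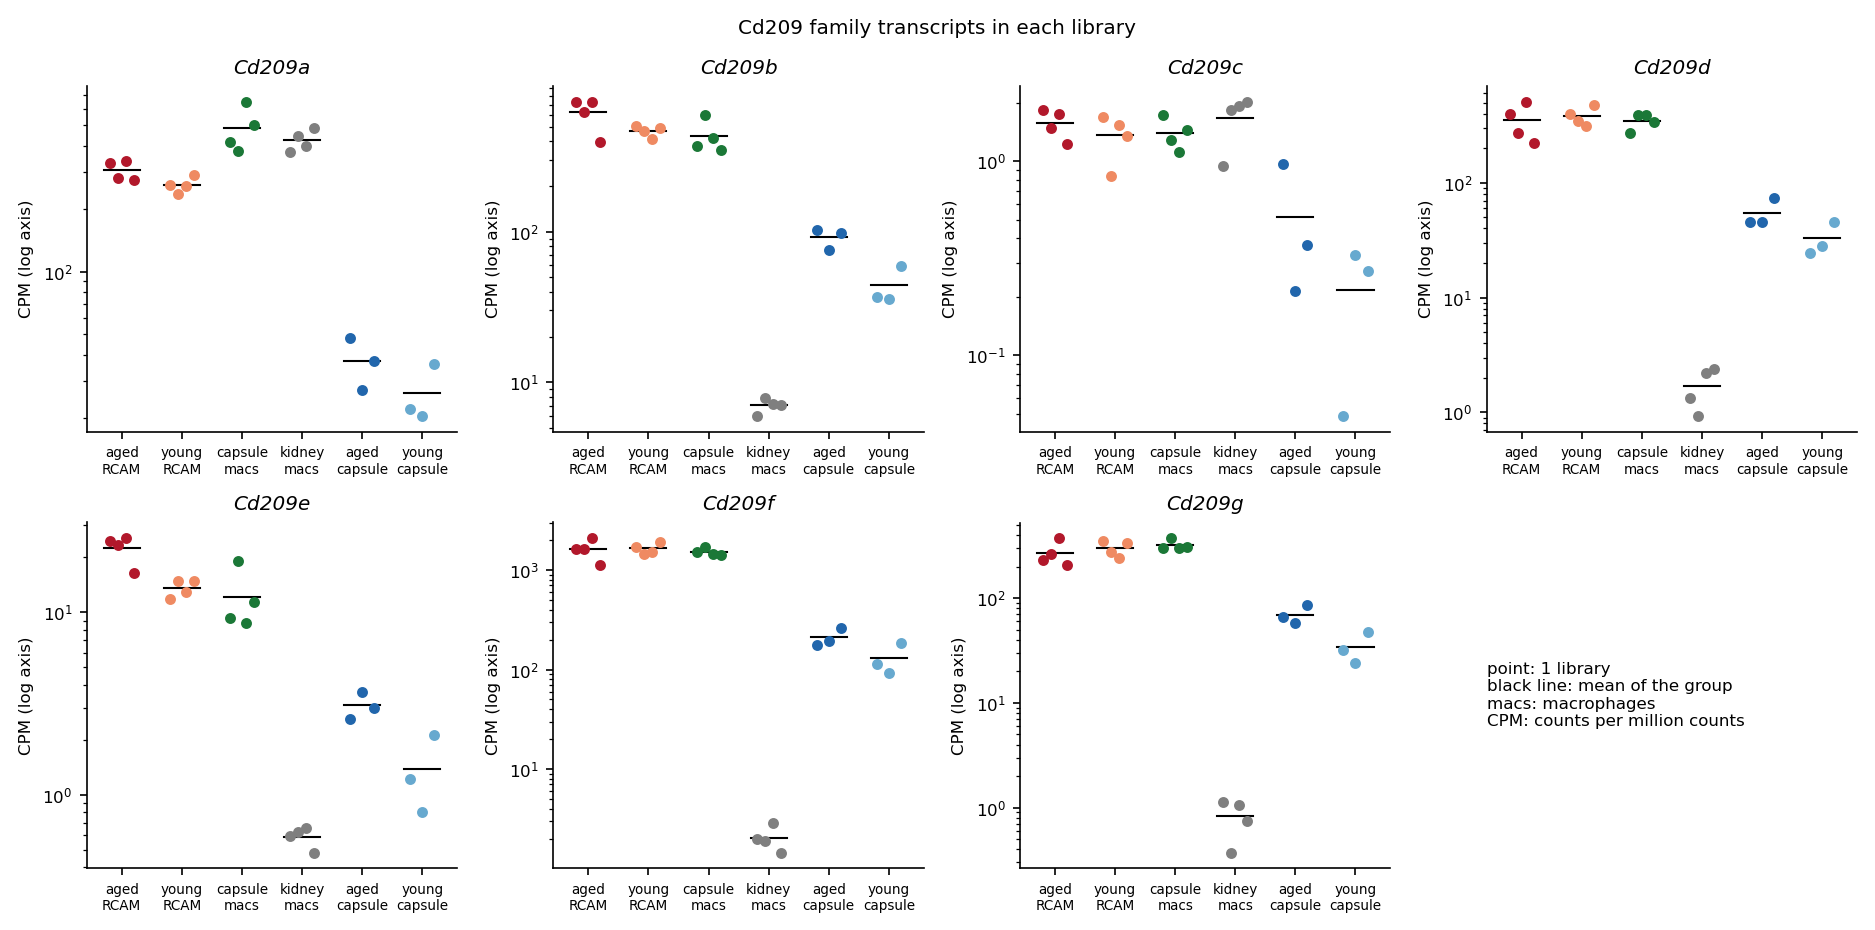
Each panel plots 1 Cd209 member as CPM on a log axis, with a point for each library, a line for the mean and the 6 groups along the horizontal axis. Kidney macrophages (macs) fall far below the other groups for Cd209b, Cd209d, Cd209f and Cd209g, with Cd209f at 1.44 to 2.86 CPM there, but not for Cd209a at 375 to 486 CPM. For Cd209e they are lowest by less, with a mean of 0.59 CPM against 1.38 CPM in young capsule tissue.

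Neighbours in that order were compared with edgeR's quasi-likelihood test over all 22 libraries, and 16 of the 35 pairs of neighbours differed at an adjusted p under 0.05. For all 7 members the step between the lowest macrophage-rich group outside the kidney and aged capsule tissue passed. These pairs were young RCAM above aged capsule tissue for Cd209a and Cd209c, where 73.2% of the 19485 genes tested passed in either direction, aged RCAM above aged capsule tissue for Cd209g, where 70.5% passed, and capsule macrophages above aged capsule tissue for the other 4 members, where 72.5% passed. Young capsule tissue stood above kidney macrophages for Cd209b, Cd209d, Cd209e, Cd209f and Cd209g, with 72% of all genes passing in either direction. In bulk libraries, fewer cells of a type and less RNA per cell cannot be told apart, and shares this high give these steps little to set the family apart. The step between aged and young capsule tissue passed for Cd209b, Cd209e, Cd209f and Cd209g in this fit of all groups, with 15.9% of genes passing in either direction. None of the steps among aged RCAM, young RCAM and capsule macrophages passed, where 3.78% of genes differed between aged and young RCAM, 9.34% between capsule macrophages and young RCAM, and 12.2% between aged RCAM and capsule macrophages. The steps of Cd209a between capsule and kidney macrophages, where 44.5% of genes passed, and of Cd209a and Cd209c between kidney macrophages and aged RCAM, where 44.9% passed, did not pass either.

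Macrophages of the capsule differed from macrophages of the kidney in 5 of the 7 members, all higher in the capsule. The difference ranged from 23.8-fold for Cd209e to 879-fold for Cd209f, and Cd209a and Cd209c did not pass the test. All 7 genes were tested in a fit of these 8 libraries with edgeR's quasi-likelihood test, in which 27.3% of 15701 genes were called higher and 28.2% lower in capsule macrophages. The median log2 fold change was 6.16 over the 7 members and -0.03 over all genes tested.

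Cd209f stood at 1504, 1698, 1445 and 1424 CPM in capsule macrophages, against 1.97, 1.88, 2.86 and 1.44 CPM in kidney macrophages. The groups were far apart, although the kidney values rest on 72 to 91 reads per library. The log2 fold change was 9.78 ± 0.19 (SE, edgeR adjusted p = 2.4e-10). Cd209g stood at 304, 375, 303 and 309 CPM in capsule macrophages, against 1.14, 0.371, 1.07 and 0.742 CPM in kidney macrophages. Capsule replicate 2 was above its 3 fellows, and no kidney library came near them. The log2 fold change of Cd209g was 8.83 ± 0.24 (edgeR adjusted p = 2.3e-09).

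Cd209d had 274, 386, 392 and 340 CPM in capsule macrophages, against 1.34, 0.928, 2.20 and 2.37 CPM in kidney macrophages. Every capsule value was far above every kidney value, and the edgeR estimate on the log2 scale was 7.88 ± 0.28 (adjusted p = 9.9e-09). The SIGNR1 gene Cd209b had 369, 596, 422 and 348 CPM in capsule macrophages, against 5.95, 7.86, 7.16 and 7.06 CPM in kidney macrophages. It kept the highest kidney level of the 5 genes that differed, and its log2 fold change was 6.16 ± 0.20 (edgeR adjusted p = 7.0e-09). Cd209e had 9.31, 19.0, 8.69 and 11.4 CPM in capsule macrophages, against 0.591, 0.626, 0.659 and 0.481 CPM in kidney macrophages. Its log2 fold change was 4.57 ± 0.31 (edgeR adjusted p = 8.9e-07), with the kidney values resting on 21 to 27 reads.

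Cd209a, the DC-SIGN gene, had 415, 379, 649 and 504 CPM in capsule macrophages, against 375, 447, 397 and 486 CPM in kidney macrophages. The 2 groups overlapped, with capsule replicate 3 highest, and the log2 fold change was 0.40 ± 0.16 (edgeR adjusted p = 0.0622), and it passed at 0.0442 without capsule replicate 1, at 0.0211 without capsule replicate 2, at 0.0498 without kidney replicate 4 and at 0.0334 with DESeq2. Cd209c had 1.72, 1.28, 1.12 and 1.45 CPM in capsule macrophages, against 0.941, 1.83, 1.92 and 2.03 CPM in kidney macrophages (log2 fold change -0.06 ± 0.35, edgeR adjusted p = 0.894). Cell types other than macrophages also differed between the 2 sorts. The summed level of 8 fibroblast genes was 616 to 903 CPM in macrophages of the capsule, against 11.5 to 17.2 CPM in those of the kidney. That of 8 proximal tubule genes was 15.3 to 134 CPM in macrophages of the capsule, against 1304 to 2462 CPM in those of the kidney. Their part in the Cd209 differences was not tested.

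**Figure D3:**
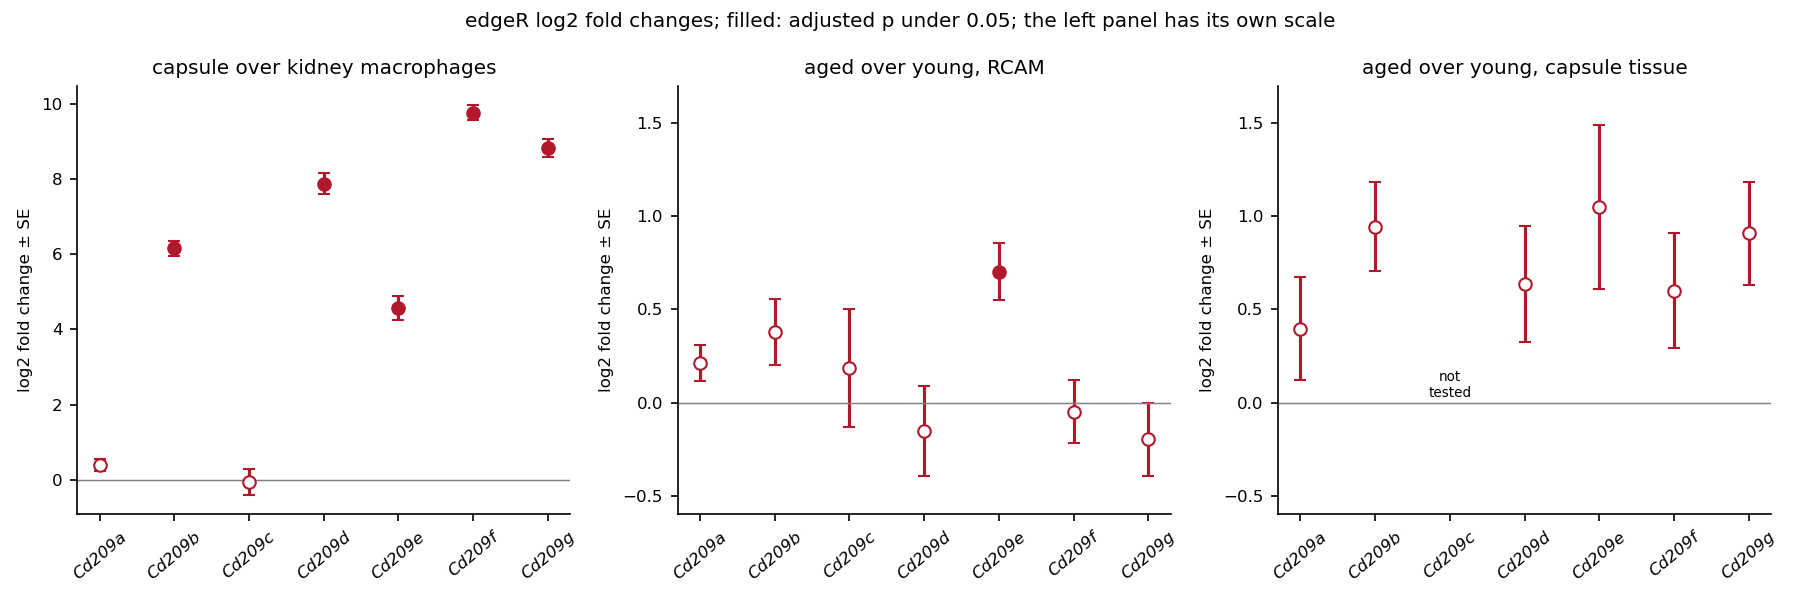
Points give edgeR log2 fold changes with standard errors for each Cd209 member in 3 comparisons, filled where the adjusted p was under 0.05, and the left panel has a wider vertical scale. Between capsule and kidney macrophages 5 members are filled, between aged and young RCAM only Cd209e, and between aged and young capsule tissue none. All 3 fits were without the replicate block.

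Of 22 protein-coding genes within 200 kb of the cluster, 16 were tested between capsule and kidney macrophages, and 6 were higher and 2 lower by edgeR's quasi-likelihood test. With 27.3% of all genes higher and 28.2% lower in that comparison, the neighbours' calls were near the background. The log2 fold changes of these neighbours lay between -1.59 and 4.65. The highest was that of Retn, which encodes the adipocyte hormone resistin and is also on the adipocyte list used here, at 3.96 CPM on average in capsule and 0.178 CPM in kidney macrophages. Fcer2a, the low-affinity IgE receptor, and Clec4g, another C-type lectin, lie beside Cd209a and stayed below 1 CPM on average in both groups. None of the neighbours tested passed with age, 14 in RCAM libraries and 16 in capsule tissue.

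Between aged and young RCAM libraries, 1 member passed the test. Cd209e was higher in aged libraries, and the other 6 did not pass in either direction. All 7 were tested, and 3.43% of the 15182 genes were called higher and 1.38% lower in aged libraries by edgeR's quasi-likelihood test. The median log2 fold change was 0.19 over the 7 members and -0.01 over all genes.

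Cd209e, SIGNR4, had 24.4, 23.3, 25.4 and 16.4 CPM in aged RCAM libraries, against 11.8, 14.8, 12.8 and 14.8 CPM in young RCAM libraries. All aged libraries lay above all young ones, replicate 4 by the least, and the log2 fold change was 0.70 ± 0.15 (edgeR adjusted p = 0.0291). How many of all genes separated the RCAM groups in this way was not counted. The call was lost without any 1 of 7 libraries, the 4 young and aged replicates 1 to 3, with adjusted p between 0.0548 and 0.0780, and it held without aged replicate 4. DESeq2 called it at an adjusted p of 0.00073 and limma-voom at 0.0408, whereas edgeR did not call it in 1 fit of all 6 groups (adjusted p = 0.149) or with the replicate number as a block (0.116).

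Cd209b had 732, 623, 732 and 397 CPM in aged RCAM libraries, against 503, 468, 415 and 491 CPM in young RCAM libraries. Aged replicates 1 to 3 were above all young libraries, and aged replicate 4 was below them all. The log2 fold change was 0.38 ± 0.18 (edgeR adjusted p = 0.311), and without aged replicate 4 it was 0.55 with an adjusted p of 0.0245. The same library was the lowest of the aged group for every member. Its pan-macrophage, resident macrophage and sinus macrophage sums were also the lowest of that group. Its fibroblast, monocyte, dendritic cell, kidney macrophage and T cell sums were the highest. The part of these cells in its Cd209 levels was not tested.

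Cd209a had 332, 282, 338 and 274 CPM in aged RCAM libraries, against 260, 234, 255 and 291 CPM in young RCAM libraries, and the groups overlapped through young replicate 4 (log2 fold change 0.21 ± 0.10, edgeR adjusted p = 0.293). Cd209f had 1646, 1639, 2090 and 1131 CPM in aged RCAM libraries, against 1719, 1455, 1528 and 1911 CPM in young RCAM libraries. The aged values enclosed the young ones on both sides, and the log2 fold change was -0.05 ± 0.17 (edgeR adjusted p = 0.933). Cd209d spanned 223 to 508 CPM in aged and 312 to 474 CPM in young RCAM libraries, with a log2 fold change of -0.15 ± 0.24. Cd209g spanned 208 to 373 CPM in aged and 242 to 354 CPM in young RCAM libraries, with a log2 fold change of -0.20 ± 0.19. Cd209c spanned 1.22 to 1.84 CPM in aged and 0.843 to 1.69 CPM in young RCAM libraries, with a log2 fold change of 0.19 ± 0.32. None of these 3 passed, at edgeR adjusted p between 0.696 and 0.847.

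Markers of other cells moved with age in these libraries as well, where 3.43% of all genes were called higher and 1.38% lower. Of the 8 B cell genes, 3 of the 5 tested were higher in aged RCAM, with sums of 41.9 to 57.9 CPM in aged and 11.7 to 22.3 CPM in young libraries, and Ms4a1 and Pax5 averaged under 0.5 CPM in both. Of the 8 fibroblast genes, 4 were higher, with sums of 929 to 2646 CPM in aged and 544 to 748 CPM in young libraries. Of 9 endothelial genes, 2 were higher, with sums of 24.9 to 74.2 CPM in aged and 12.02 to 17.1 CPM in young libraries. No T cell gene passed among the 6 tested, 1 had an unadjusted p under 0.05 in edgeR, and the 9 listed genes summed to 47.0 to 71.7 CPM in aged and 28.3 to 43.2 CPM in young libraries. The adipocyte sums overlapped, and 1 of the 7 adipocyte genes tested was higher, Fabp4, a fatty acid carrier gene, at 1.496 (edgeR adjusted p = 0.00333). Monocyte genes had 2 calls and dendritic cell, kidney macrophage and sinus macrophage genes 1 each, all higher. The pan-macrophage and proximal tubule lists had no call among their 15 and 8 genes. Of 13 genes of resident tissue macrophages, 6 were lower in aged RCAM and none higher. Their part in the Cd209e difference was not tested.

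In capsule tissue, no member passed the test between aged and young libraries in the main fit, although all 6 members tested had positive log2 fold changes. That fit had no replicate block, and the calls differed with the block, as given below. Cd209c had 1 to 42 reads per library and was removed by the filter on low counts. Only 0.153% of 16350 genes were called higher and 0.0856% lower in aged tissue, and the median log2 fold change was 0.77 over the 6 members and 0.03 over all genes. The check on simulated counts recovered 22% of genes changed 2-fold at this group size.

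Cd209b had 102, 75.4 and 98.2 CPM in aged capsule tissue, against 36.9, 35.9 and 59.2 CPM in young capsule tissue. The groups did not overlap, and the log2 fold change was 0.94 ± 0.24 (edgeR adjusted p = 0.0971). How many of all genes lacked overlap between these tissue libraries was not counted, here or for the members that follow. Cd209g had 66.0, 58.3 and 85.6 CPM in aged tissue, against 31.9, 24.3 and 47.5 CPM in young tissue. Again no aged library overlapped the young ones, and the log2 fold change was 0.91 ± 0.28 (edgeR adjusted p = 0.119).

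Cd209e had 2.59, 3.67 and 2.99 CPM in aged tissue, against 1.21, 0.799 and 2.12 CPM in young tissue, with no overlap (log2 fold change 1.05 ± 0.44, edgeR adjusted p = 0.209). Cd209f had 178, 192 and 264 CPM in aged tissue, against 112, 92.1 and 184 CPM in young tissue. Young replicate 3 lay within the aged range, and the log2 fold change was 0.60 ± 0.31 (edgeR adjusted p = 0.295). Cd209d had 45.6, 45.7 and 73.7 CPM in aged tissue, against 24.4, 28.3 and 45.7 CPM in young tissue. Young replicate 3 again lay within the aged range (log2 fold change 0.64 ± 0.31, edgeR adjusted p = 0.270). Cd209a had 48.0, 27.1 and 37.4 CPM in aged tissue, against 21.96, 20.3 and 36.1 CPM in young tissue, and overlapped (log2 fold change 0.40 ± 0.28, edgeR adjusted p = 0.435).

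Libraries of capsule tissue with the same replicate number deviated together, and with the replicate number as a block in edgeR 4 members passed. These were Cd209g at 0.94 ± 0.14 (adjusted p = 0.00719), Cd209b at 0.97 ± 0.16 (0.0114), Cd209d at 0.64 ± 0.13 (0.0218) and Cd209f at 0.63 ± 0.16 (0.0474). Under the block, 5.77% of all genes were called higher in aged tissue. Cd209e (0.140) and Cd209a (0.225) did not pass with it. DESeq2 without the block called Cd209b at an adjusted p of 0.0144 and Cd209g at 0.0441.

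**Figure D4:**
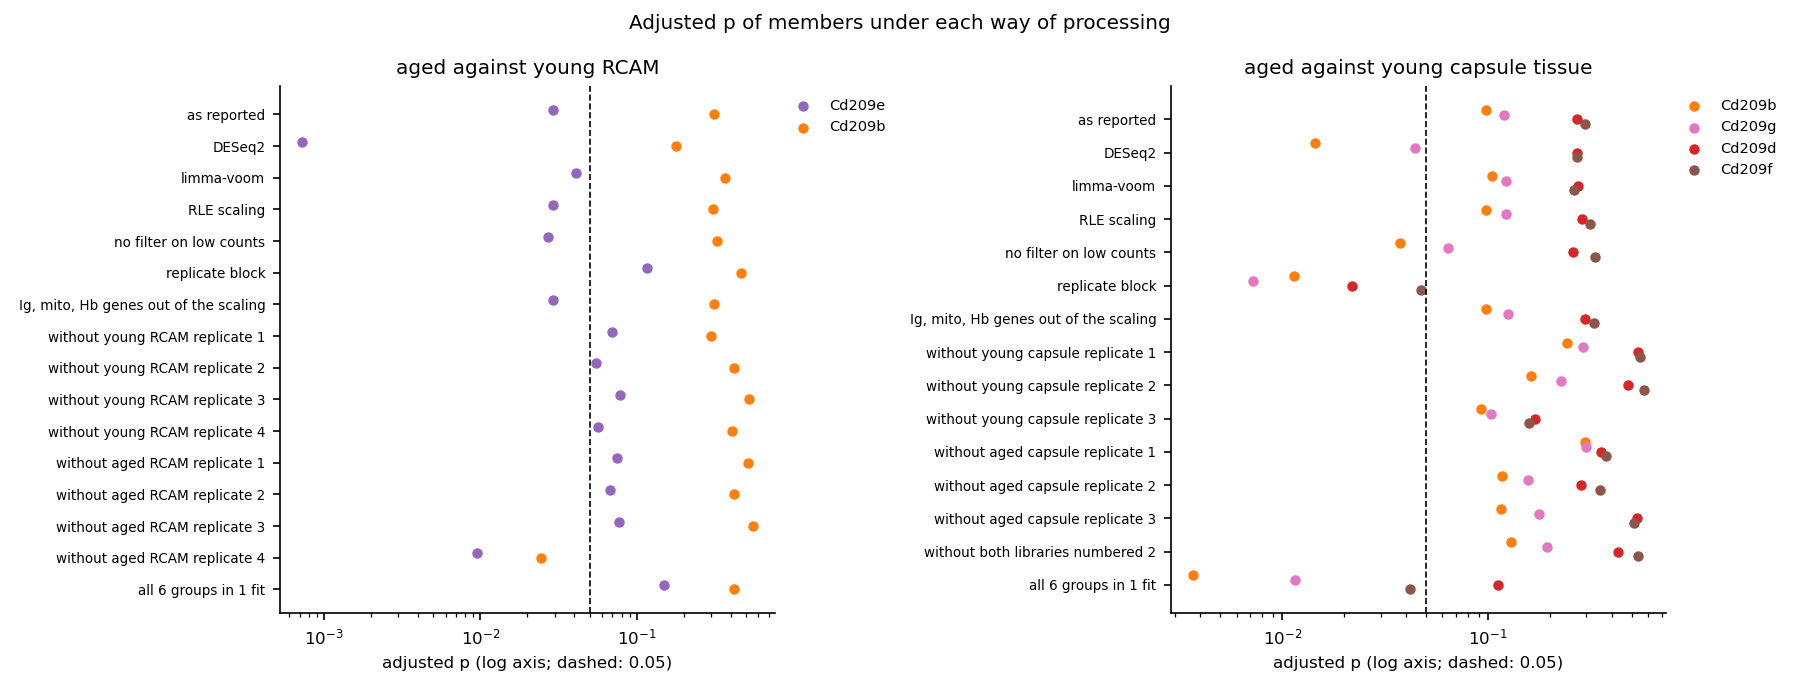
Points give the adjusted p (log axis, dashed line at 0.05) of members under each way of processing, with RCAM libraries on the left and capsule tissue on the right. Cd209e lies at 0.0291 as reported and crosses the line without 7 of the 8 RCAM libraries, while in capsule tissue the replicate block moves Cd209b, Cd209d, Cd209f and Cd209g to between 0.00719 and 0.0474.

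The pan-macrophage, lymphocyte and kidney tubule sums did not overlap between the capsule tissues either. The kidney macrophage sum did overlap, at 834 to 1162 CPM in aged and 964 to 1059 CPM in young tissue. The resident macrophage sum separated barely, at 3255 to 4722 CPM in aged and 1803 to 3254 CPM in young tissue. The pan-macrophage sum was 4586 to 11768 CPM in aged and 2223 to 4496 CPM in young tissue, without overlap, and 8 proximal tubule genes summed to 1241 to 6113 CPM in aged and 6350 to 24879 CPM in young tissue. None of the 14 pan-macrophage and 8 tubule genes tested passed by edgeR's adjusted p, and 8 of each list had an unadjusted p under 0.05. The B cell sum was 68.2 to 104.6 CPM in aged and 16.5 to 27.7 CPM in young tissue, and 2 of its 8 genes were called higher, Cd22 at 3.43 (edgeR adjusted p = 0.0339) and Cd79a at 1.84 (0.0447). The T cell sum was 79.7 to 102.0 CPM in aged and 22.8 to 38.9 CPM in young tissue, where none of 9 genes passed edgeR's adjusted p and all 9 had an unadjusted p under 0.05. Over all genes tested, 0.153% were called higher in aged tissue. The part of these cell types in the Cd209 values was not tested. The members were also expressed per 1000 CPM of the pan-macrophage sum.

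Per 1000 CPM of macrophage transcripts, the capsule tissue groups overlapped for all 7 members. Cd209b was at 15.9, 16.4 and 8.35 in aged tissue, against 10.9, 16.2 and 13.2 in young tissue, a ratio of means of 1.01 (exact permutation test, 2-sided, p = 0.9). Cd209g was at 10.2, 12.7 and 7.27 in aged tissue, against 9.38, 10.9 and 10.6 in young tissue, a ratio of 0.978 (exact permutation p = 0.9). Aged replicate 3, the library with the highest macrophage sum, was the lowest of the aged group for all 7 members. Its pan-macrophage sum was 11768 CPM, against 6449 and 4586 CPM in aged replicates 1 and 2. Its resident macrophage sum was 4722 CPM, against 4063 and 3255 CPM. The ratios of means thus depend in part on the denominator of this library. Cd209f averaged 30.6 ± 10.1 in aged and 38.5 ± 4.68 in young tissue (SD, n = 3 each, exact permutation p = 0.4), and Cd209a 5.51 ± 2.16 in aged and 7.88 ± 1.35 in young tissue (exact permutation p = 0.2). An exact permutation test of 3 against 3 libraries cannot go below p = 0.1. These tests took no account of the replicate numbers. Among same-numbered libraries Cd209d was lower in aged tissue in all 3 pairs, at 7.07, 9.96 and 6.27 in aged, against 7.19, 12.7 and 10.2 in young tissue, a paired difference that was not tested. With C1qa, C1qb and C1qc alone as the denominator all 7 members again overlapped, and the ratio of means was 1.14 for Cd209g, the other side of 1, and 1.18 for Cd209b.

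In RCAM libraries the same measure of Cd209e was 0.566, 0.527, 0.615 and 0.409 in aged, against 0.281, 0.366, 0.327 and 0.370 in young libraries. The groups did not overlap, and the ratio of means was 1.58 (exact permutation test, 2-sided, p = 0.0286 unadjusted, 0.4 adjusted over 14 such tests). The unadjusted p is the smallest that 4 against 4 libraries allow. How many of all genes lacked overlap on this measure was not counted. The other 6 members overlapped between aged and young RCAM. Cd209b averaged 14.7 ± 3.53 in aged and 11.6 ± 0.75 in young libraries (SD, n = 4 each, exact permutation p = 0.171). Cd209f averaged 38.5 ± 9.17 in aged and 40.9 ± 4.94 in young libraries (exact permutation p = 0.714). With the 3 C1q genes as the denominator, Cd209e was again the only member without overlap in RCAM libraries, at a ratio of 1.61. Both measures use the same Cd209e counts.

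**Figure D5:**
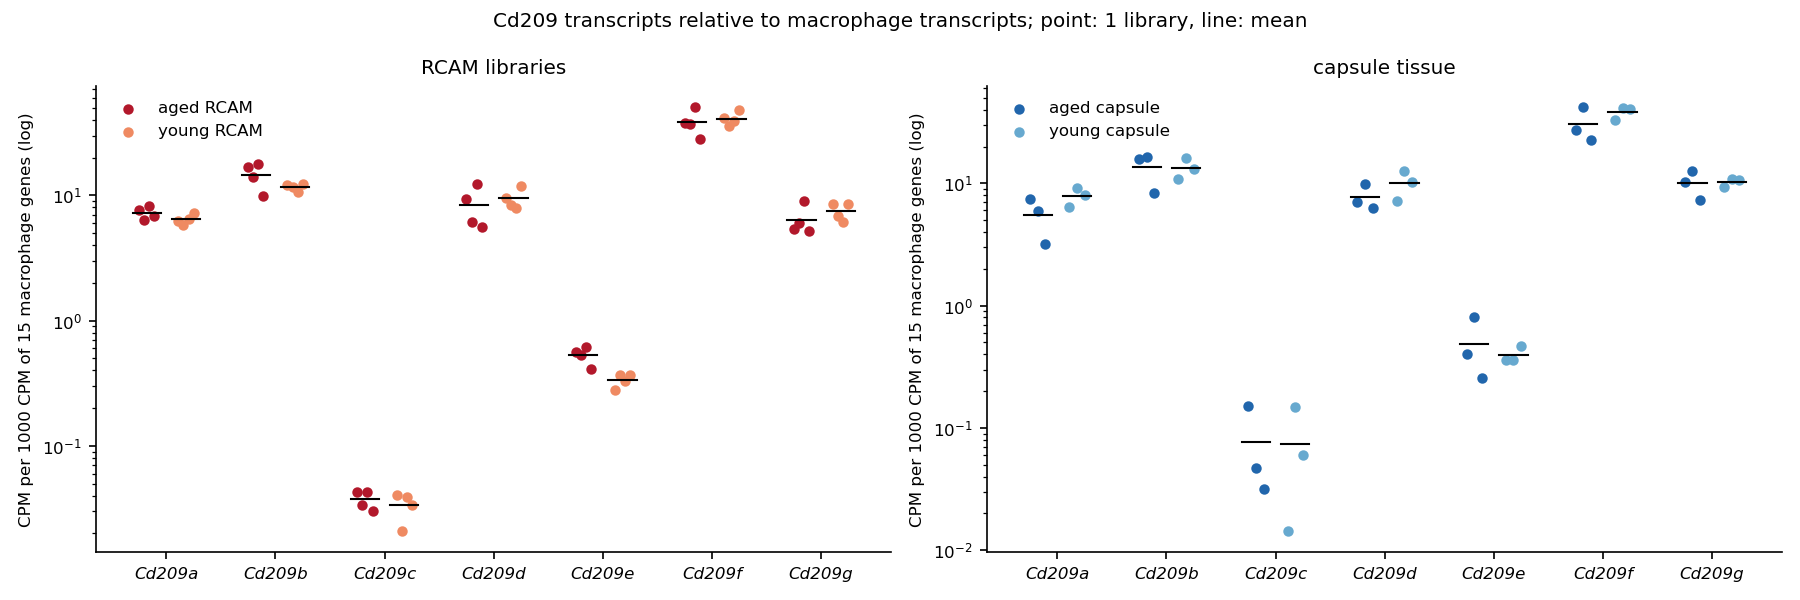
Points give the CPM of each Cd209 member per 1000 CPM of the summed 15 pan-macrophage genes on a log axis, with lines for means, in aged and young RCAM libraries (left) and aged and young capsule tissue (right). Cd209e in RCAM libraries, at 0.409 to 0.615 in aged and 0.281 to 0.370 in young, is the only member whose groups separate.

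The age effects in RCAM libraries and in capsule tissue were compared with an interaction term in edgeR, in which 5.05% of 18856 genes passed in either direction. None of the 7 members passed. All 7 estimates were negative, a lower log2 fold change with age in RCAM libraries than in capsule tissue. For Cd209d, Cd209f and Cd209g the separate estimates were below 0 in RCAM libraries and above 0 in tissue. Cd209g had the interaction estimate farthest from 0, -1.07 ± 0.36 (edgeR adjusted p = 0.0973), which passed at 0.0348 with DESeq2 and at 0.0467 without young capsule replicate 3. For Cd209b the interaction estimate was -0.53 ± 0.32 (edgeR adjusted p = 0.354) and for Cd209e -0.31 ± 0.38 (edgeR adjusted p = 0.716).

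The ratio of Cd209f to Cd209g is given as a description, with no test. It was 5.44 to 7.06 in aged RCAM, 4.86 to 6.33 in young RCAM and 4.53 to 4.94 in capsule macrophages, against 1.73, 5.06, 2.68 and 1.95 in kidney macrophages, where both genes had few reads and the range enclosed that of capsule macrophages. In tissue it was 2.69, 3.30 and 3.08 in aged and 3.53, 3.79 and 3.87 in young capsules, without overlap. Because these transcripts share windows, the ratio depends on how shared reads were assigned, which is not stated. The annotated exons of Cd209g form 1 block of 3610 bases, its whole span, against 1988 bases in 5 blocks for Cd209f. Any part of intron reads in the ratio was not tested.

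Other lectin receptors of myeloid cells gave a mixed picture beside the family. Of 28 such genes, 25 were tested between capsule and kidney macrophages, and 10 were higher and 10 lower by edgeR's adjusted p. Over all genes tested, 27.3% were higher and 28.2% lower. The median log2 fold change of the 25 lectin receptors was 0.20, against 6.16 over the Cd209 members. Colec12, a scavenger receptor with a collagen-like stalk, was higher by 7.10 on the log2 scale, Clec10a, a receptor for galactose-type sugars, by 3.39, and the mannose receptor gene Mrc1 by 2.51. Cd69, an activation marker of leukocytes, was lower by a log2 fold change of -3.44.

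With age in RCAM libraries, 5 of the 24 lectin receptors tested were higher and 2 lower, with a median log2 fold change of 0.09. Over all genes tested there, 3.43% were higher and 1.38% lower. Mgl2, a sister gene of Clec10a, was lower at -1.10 ± 0.09 (edgeR adjusted p = 0.00049). Clec1a at 1.39, Clec4n, which encodes the fungal sensor Dectin-2, at 1.28, and Clec12a, an inhibitory receptor, at 0.51 were higher. In capsule tissue none of the 22 tested passed, 13 had an unadjusted p under 0.05, and the median was 0.93.

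Among 18 genes of lectin receptor signalling, none passed with age in either RCAM libraries or capsule tissue by edgeR's adjusted p, where 3 and 8 had an unadjusted p under 0.05. Between capsule and kidney macrophages 5 were higher and 8 lower, against 27.3% and 28.2% of all genes. The tyrosine kinase gene Syk was higher at 0.88 and the NF-kB subunit gene Relb at 0.78. The exchange factor gene Vav1 was lower at -0.67 and Malt1, which encodes a protease of the CARD9 pathway, at -1.29.

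Of 9 genes of reported ligands or partners of these lectins, C3, the central complement protein, was the only one of 8 tested that was called with age in RCAM libraries (log2 fold change 1.34 ± 0.20, edgeR adjusted p = 0.00598). It was also higher in capsule than in kidney macrophages at 3.11. There C1qc at 0.79 and C1qa at 0.74 were higher as well, whereas Icam2, an adhesion ligand of DC-SIGN, was lower at -0.80. In all, 6 partners were higher and 2 lower in that comparison, against 27.3% and 28.2% of all genes. None of 8 passed with age in capsule tissue.

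Across the 22 libraries, the log2 CPM of Cd209b, Cd209d, Cd209e, Cd209f and Cd209g were correlated with each other at Pearson's r of 0.906 to 0.995. Cd209a and Cd209c were correlated at 0.881, and their r with the other 5 was 0.00389 to 0.33. These are descriptions over libraries that fall into the 6 groups. The r of 0.995 was that of Cd209f with Cd209g, whose shared reads may raise it. Among 10880 genes, the ones most like Cd209f were Cbr2 at r = 0.996, a carbonyl reductase gene, F13a1 at 0.996, encoding a clotting factor subunit, and Folr2 at 0.996, a folate receptor gene. Cbr2 also led for Cd209d (0.994) and Cd209g (0.995), next to Cd209f itself, with the hyaluronan receptor gene Lyve1 (0.991) following for Cd209d and Folr2 (0.993) for Cd209g.

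Cd209b was closest to Cd38 (r = 0.989), which encodes an enzyme that consumes NAD, to the matrix protease gene Mmp9 (0.987) and to Cd209d (0.985). Cd209e was closest to Prune2 (0.978), to Siglec1 (0.977), which encodes the sialic acid receptor of sinus macrophages, and to Cd38 (0.976). Cd209a was closest to Limd2 (0.990), Armc7 (0.989) and Coro1a (0.987), the last an actin-binding protein gene of leukocytes. Cd209c was closest to Mir142hg (0.934), the host gene of a blood cell microRNA, Tent5a (0.915) and Nectin4 (0.910).

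These likenesses over all libraries did not carry over to the call with age. In RCAM libraries Cbr2, F13a1 and Folr2 were lower in aged than in young at log2 fold changes of -0.51, -0.66 and -0.76 (edgeR adjusted p = 0.0499, 0.0184 and 0.0345), while Cd209f was at -0.05 and did not pass. Siglec1 was at -0.02 (edgeR adjusted p = 0.968) where Cd209e was at 0.70. The differences between these genes were not tested.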

How the data were processed

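The files deposited by the authors hold raw counts of reads per gene, 1 file per library. Per the submitters' processing notes the build is GRCm38. Aligner, counter and use of strand remain not given in the sources used here. Of 52636 gene identifiers, 52489 were named from GENCODE M21 and 147 were not found. The members and gene lists were chosen with earlier results of these data known. Counts were tested with edgeR 4.0.16 (TMM scaling, default expression filter, 2-sided quasi-likelihood test, Benjamini-Hochberg adjustment over all genes tested, threshold 0.05), with only the compared groups in a fit. DESeq2 1.42.0, limma-voom (limma 3.58.1), RLE scaling, no filter, scaling without immunoglobulin, mitochondrial and haemoglobin genes, a replicate block, a fit of all 6 groups and leaving out each library were alternatives. Levels are CPM of the unscaled total. Exact permutation tests used scipy 1.17.1.

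Named genes were the members, their 3 most correlated genes, protein-coding neighbours within 200 kb, and up to 4 genes of smallest p per list. Same-numbered libraries deviated together in capsule tissue, at correlations of 0.213 to 0.543 over genes whose log2 CPM averaged 3 or more and of 0.0986 to 0.353 over all genes tested. This pairing comes from the data, not from the labels. The main fits, the interaction, the fit of all 6 groups and the permutation tests did not use it. Only the replicate block, an alternative, did, and the calls in capsule tissue depend on it. The test was checked on simulated counts and recovered 95% of 4-fold changes between RCAM libraries, 89% between capsule tissues and 94% between the macrophages, on the log2 scale a change of 2. Promoters and synonyms came from RefSeq, in which all 7 members were found.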

Additional observations from a re-analysis of the deposited data

Results flagged for a closer look

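Of 28 combinations of a member with a group of 4 libraries, 1 held a library far from its fellows. Cd209g reached 375 CPM in capsule macrophage replicate 2, while the other 3 capsule macrophage libraries lay between 303 and 309 CPM. Chance alone would mark about 1 in 20 such groups.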

How the results depend on the processing

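The 5 members called between capsule and kidney macrophages kept direction and call under all 15 alternatives. With age in RCAM libraries, where 1 member (Cd209e) was called, 0 were called in the fit of all 6 groups, and 0 to 2 without 1 library, with Cd209b joining Cd209e only without aged RCAM replicate 4. Over all genes of that comparison, 729 were called, against 1441 with DESeq2 and 451 to 629 without 1 library. In capsule tissue, where 0 members were called, DESeq2 called 2, no filter 1 and the fit of all 6 groups 4, and leaving out any 1 library or both libraries numbered 2 called none. The 39 genes called there became 1876 with DESeq2, 25 with limma-voom, 1095 with no filter, 487 without both libraries numbered 2, 3097 in the fit of all 6 groups and 0 to 387 without 1 library. For the interaction, where 0 members were called, DESeq2 called 1 and leaving out 1 library 0 to 1, and the 952 genes called became 2324 with DESeq2 and 282 to 1594 without 1 library. Per macrophage transcripts, 3 of 7 members had the higher mean in aged capsule tissue, and 1 to 4 without 1 library.

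With the replicate block, 0 members and 336 genes were called between aged and young RCAM libraries, where Cd209e stood at an adjusted p of 0.116. The block called 4 members and 2196 genes in capsule tissue. Same-numbered libraries did not deviate together in RCAM libraries (correlations of -0.236 to -0.0537) or macrophages (-0.0545 to 0.105), so these share only a number. The block changed no other call.

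Signs turned only for members near 0. The log2 fold change with age in RCAM libraries ranged without 1 library from -0.194 (aged replicate 3) to 0.0975 (aged replicate 4) for Cd209f, which was 0.0315 without young replicate 4, and from -0.388 (aged replicate 3) to 0.0201 (aged replicate 4) for Cd209d. Between capsule and kidney macrophages Cd209c was 0.0125 with limma-voom and ranged from -0.27 without kidney replicate 1 to 0.0461 without kidney replicate 4, with 0.0382 without capsule replicate 3. The causes were not tested. Depth limits Cd209c most, at 1 to 42 reads per capsule library.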
